A study of Hordeum vulgare with 32 samples.

Results

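The barley apex table holds 35 transcripts annotated as MADS-box factors, out of 30174 transcripts in all. They are the rows whose Arabidopsis match or whose match descriptions contain the words MADS or AGAMOUS, with the APETALA3-like AK373398; 38 rows carried the words and 3 of these, set aside by name, were left out. The table rates 23 of the 35 as high confidence and 8 as low confidence, and leaves 4 unrated. By the rice locus of the match, and otherwise the Arabidopsis locus, 4 are AP1/FUL-like, 3 are B class, 1 is OsMADS32-like, 2 are C class, 6 are SEP-like (E class), 1 is AGL6-like, 2 are SOC1-like, 4 are SVP-like and 1 is AGL17-like. The other 11 are 3 with a rice MIKC* match, 4 of type I and 4 with a mixed match. Transcripts are named by their identifiers and their rice match, and no barley gene name is given to them.

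MADS-box factors are DNA-binding proteins that assemble into pairs and quartets, and the combination sets the identity of each floral organ. In the ABCE scheme, worked out in Arabidopsis and largely shared by grasses, A class and SEP-like factors give the outer organs, B class factors are added in the petals (lodicules in grasses) and stamens, and C class factors act in stamens and carpels. SEP-like (E class) and AGL6-like proteins are partners that the others need. SVP- and SOC1-like factors act earlier, on flowering time and on the meristem, and in barley forced expression of SVP-like genes has been seen to turn florets back towards an inflorescence.

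Total RNA of main shoot apices of Hordeum vulgare was sequenced in 32 libraries. They cover 5 lines, each at stage W3.5 and at stage W5.5 of the Waddington scale, which scores how far the inflorescence and its flowers have formed; the series text and the table's headers call the later stage W5.0. Bowman, a 2-rowed cultivar, had 4 libraries at each stage. The near-isogenic lines int-a.1 (stock GSHO 2055; vrs3(int-a.1) in the headers), vrs4.k (GSHO 1986), vrs1 (GSHO 1907) and int-c.5 (GSHO 2003), all in the Bowman background, had 3 libraries per group. All plants were untreated and were kept in long days, with 16 h light (22 °C) and 8 h night (18 °C). Apices were collected around midday, 6 to 8 h before dark. Each line is a single introgression stock: it carries a mutant allele of a locus known to restrain the lateral spikelets, together with any donor segment around it, and the labels give neither the lesion nor the plants pooled per library. The labels do not say that libraries of a group came from separate plants, so p-values measure the spread between these libraries, which may be technical.

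Levels are TPM, scaled by transcript length and library, so levels of different transcripts can be compared; libraries summed to between 980945 and 987728 TPM and their depth is unknown. Of the fixed apex markers, the 5 KNOX transcripts of the meristem summed to 53.5 to 117.4 TPM at W3.5 and 63.5 to 113.1 TPM at W5.5, and the 6 YABBY transcripts of young organs to 119.9 to 226 and 144.5 to 251.5 TPM. The 15 leaf photosynthesis transcripts summed to 241 to 495 and 303.3 to 775 TPM, at most 1 of them was listed at 0 in a library, and their part in the results below was not tested. The 775 TPM was the sum in int-c.5 W5.5 replicate 1, and the next highest library, vrs4.k W5.5 replicate 1, was at 531.5 TPM. On the first principal component of all other transcripts (24.05% of the variance; medians -22.81 at W3.5 and 18.42 at W5.5), 4 libraries scored beyond the other stage's median. At W3.5 they were Bowman replicate 4, scored at 21.62, int-a.1 replicate 1, at 24.91, and vrs4.k replicate 2, at 52.49. At W5.5 it was int-c.5 replicate 1, at -29.78. Results are given with them, and without them where this moves the result.

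The first question was how these transcripts changed as the apex developed. Averaged over the 5 lines, 20 of the 35 passed the test of W5.5 against W3.5 (limma on log2(TPM + 1), Benjamini-Hochberg adjusted p below 0.05 over all transcripts): 17 rose and 3 fell. Of all 30174 transcripts 16.6% passed, 11.7% higher and 4.87% lower, and the median log2 fold was 0.29 over the members and 0.07 over all transcripts. Every B class (3 of 3), OsMADS32-like (1 of 1), C class (2 of 2), SEP-like (6 of 6) and AGL6-like (1 of 1) transcript rose, as did 2 of 4 AP1/FUL-like, 1 of 2 SOC1-like and 1 of 4 type I transcripts. The 3 that fell were 2 of the 4 SVP-like transcripts and 1 of the 4 with a mixed match. The apex is a mixture of cells, and in bulk RNA fewer cells of a type and less RNA per cell cannot be told apart. Under quantile and median-of-ratios scaling the split over all transcripts turned from 3543 higher and 1468 lower to 1964 and 2731, and to 2020 and 2646, while 15 and 16 members rose and 4 fell.

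**Figure D1:**
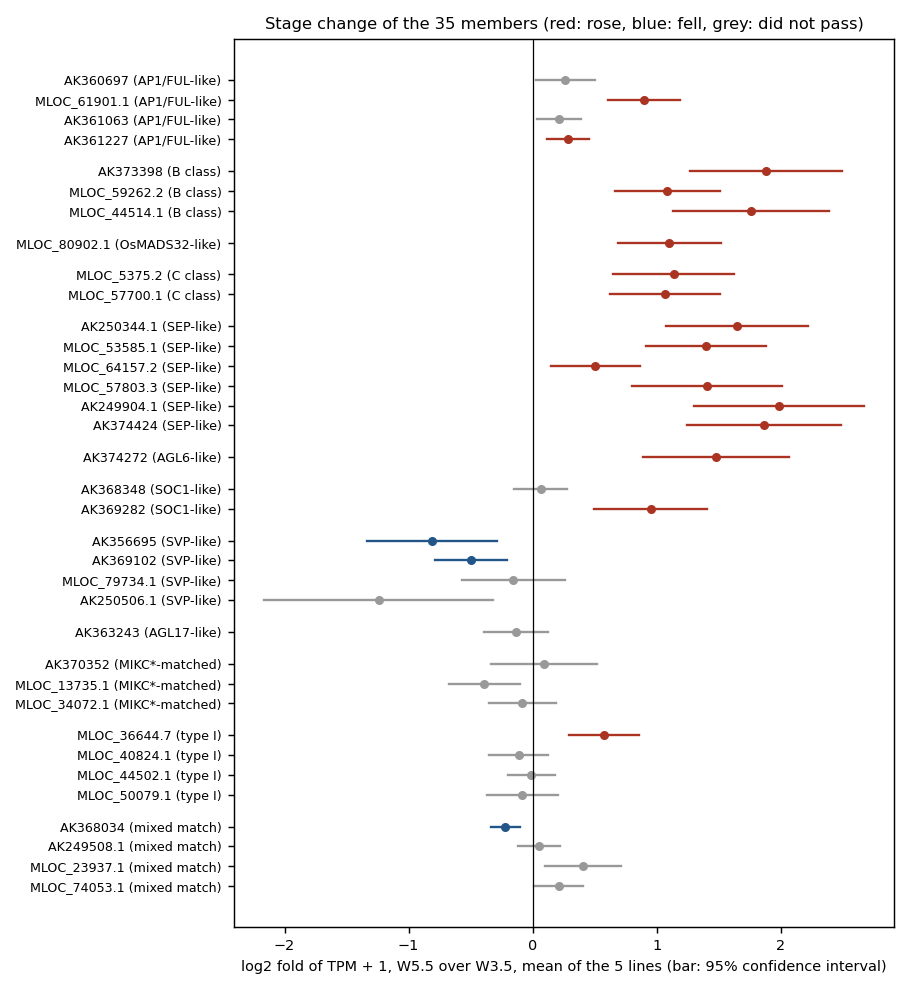
Log2 fold of TPM + 1 (horizontal axis) between W5.5 and W3.5, averaged over the 5 lines, for each of the 35 members grouped by class, with 95% confidence intervals as bars. All 13 B class, OsMADS32-like, C class, SEP-like and AGL6-like members lie to the right of 0 in red, from 0.51 to 1.99, and the 4 SVP-like members lie to its left, from -1.24 to -0.16.

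The B class transcripts, whose products specify lodicules and stamens in rice, rose by 1.08 to 1.88 log2 units. Values of a group are given in the order of replicate numbers, and folds in brackets are the stage change averaged over the 5 lines. AK373398 was at 2.3, 7, 3.6 and 13.3 TPM in Bowman, 5.2, 2.3 and 2.7 in int-a.1, 2.5, 47.3 and 3.2 in vrs4.k, 3.9, 7.7 and 8.7 in vrs1, and 9, 4.64 and 2.36 in int-c.5 at W3.5. At W5.5 AK373398 was at 17, 26, 20.6 and 40.7 TPM in Bowman, 32.6, 13.8 and 19.8 in int-a.1, 20.1, 30.7 and 18.2 in vrs4.k, 16, 17.3 and 38.2 in vrs1, and 14.7, 31.3 and 24.7 in int-c.5. This OsMADS16 match, the APETALA3-like member, had every W5.5 library above every W3.5 library in Bowman, int-a.1, vrs1 and int-c.5 (log2 fold 1.88, SE 0.30, adjusted p = 0.00084). In vrs4.k the groups overlapped, because its W3.5 replicate 2, at 47.3 TPM, was the highest of all 32 libraries. MLOC_44514.1 was at 4.2, 18.8, 9.1 and 33.3 TPM in Bowman, 16.8, 6.7 and 9.6 in int-a.1, 7.3, 97.1 and 10.3 in vrs4.k, 12.7, 16.1 and 27.9 in vrs1, and 19, 15.4 and 4.21 in int-c.5 at W3.5. At W5.5 MLOC_44514.1 was at 36.9, 38.9, 34.6 and 82 TPM in Bowman, 75.9, 50.6 and 61.2 in int-a.1, 52.8, 73.6 and 41.8 in vrs4.k, 42.7, 36 and 76.6 in vrs1, and 30.6, 55 and 38.1 in int-c.5. This PISTILLATA-like OsMADS4 match (chromosome 1, map position 59.42) was the most abundant B class transcript, and its stages separated in the same 4 lines (log2 fold 1.76, SE 0.30, adjusted p = 0.00148). MLOC_59262.2 was at 1.7, 4.2, 2 and 6.6 TPM in Bowman, 3.5, 1.4 and 3.4 in int-a.1, 2.4, 16.5 and 2.7 in vrs4.k, 2.4, 3.4 and 4.6 in vrs1, and 4, 2.96 and 2.2 in int-c.5 at W3.5. At W5.5 MLOC_59262.2 was at 6.5, 6.3, 6.5 and 13.4 TPM in Bowman, 11.2, 8.3 and 12.7 in int-a.1, 6.5, 12.6 and 7.1 in vrs4.k, 7.2, 6 and 13.1 in vrs1, and 5.02, 8.39 and 7.32 in int-c.5. The second PISTILLATA-like transcript, an OsMADS2 match (chromosome 3, 108.57), kept its stages apart in int-a.1, vrs1 and int-c.5 (log2 fold 1.08, SE 0.21, adjusted p = 0.00258). In Bowman W3.5 replicate 4, at 6.6 TPM, lay above all but the highest W5.5 library of that line. Map positions are those of the deposited table, which names no unit.

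OsMADS32 belongs to a small group of grass MADS-box genes that acts with B class genes in rice flowers. MLOC_80902.1 was at 54.9, 90, 57.4 and 174.8 TPM in Bowman, 97.6, 63.7 and 71.8 in int-a.1, 80.5, 316.5 and 76.9 in vrs4.k, 69, 76.8 and 109.1 in vrs1, and 101, 69.6 and 57.7 in int-c.5 at W3.5. At W5.5 MLOC_80902.1 was at 149.7, 187.4, 136.7 and 305.7 TPM in Bowman, 236.4, 190 and 254.4 in int-a.1, 179.5, 324.4 and 150.8 in vrs4.k, 159.2, 161.5 and 338.9 in vrs1, and 112, 163 and 126 in int-c.5. This OsMADS32 match (chromosome 3, 59.42; PISTILLATA is its Arabidopsis match) was the second most abundant member over the 10 groups, with a mean of 148 TPM. It rose (log2 fold 1.10, SE 0.20, adjusted p = 0.00194), with the stages separate in int-a.1, vrs1 and int-c.5. In Bowman W3.5 replicate 4, at 174.8 TPM, lay within the W5.5 range of that line, and vrs4.k W3.5 replicate 2, at 316.5 TPM, lay close to the highest vrs4.k W5.5 library.

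The C class transcripts were low and rose by about as much as each other. MLOC_5375.2 was at 0.6, 2.5, 1.9 and 4.4 TPM in Bowman, 2.9, 0.4 and 1 in int-a.1, 1, 13.9 and 1.3 in vrs4.k, 1.9, 2.9 and 3.5 in vrs1, and 4, 1.78 and 0.637 in int-c.5 at W3.5. At W5.5 MLOC_5375.2 was at 3.9, 6.2, 4 and 6.8 TPM in Bowman, 7.1, 5.3 and 7 in int-a.1, 7.3, 9.8 and 5.5 in vrs4.k, 4.9, 4.9 and 8.3 in vrs1, and 3.34, 5.71 and 5.74 in int-c.5. OsMADS3, its match, is needed for stamens in rice, and the transcript rose (log2 fold 1.14, SE 0.24, adjusted p = 0.0048) with separate stages in int-a.1 and vrs1. MLOC_57700.1 was at 0.3, 1.9, 1 and 3.2 TPM in Bowman, 0.8, 0.3 and 0.9 in int-a.1, 0.6, 10.1 and 0.7 in vrs4.k, 1, 1.2 and 2 in vrs1, and 2, 1.44 and 0.588 in int-c.5 at W3.5. At W5.5 MLOC_57700.1 was at 3, 3.5, 2.9 and 5.7 TPM in Bowman, 3.4, 2.9 and 3.4 in int-a.1, 4.6, 5.6 and 4.1 in vrs4.k, 3.4, 3.1 and 6.4 in vrs1, and 2.51, 6.03 and 2.81 in int-c.5. OsMADS58 acts on carpels and on the end of the floral meristem in rice. Its match MLOC_57700.1 had the lowest Bowman W3.5 mean of the 35 members, 1.6 TPM, and rose (log2 fold 1.07, SE 0.22, adjusted p = 0.00409), with separate stages in int-a.1, vrs1 and int-c.5. The summed C class level ran from 0.7 to 24 TPM over the W3.5 libraries (median 3.06) and from 5.85 to 15.4 TPM over the W5.5 libraries (median 9.65).

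The 6 SEP-like transcripts spanned from the members' largest rise to one of the smallest that passed. AK249904.1 was at 1.3, 8.1, 3.1 and 15.7 TPM in Bowman, 4.2, 1.1 and 3 in int-a.1, 3, 55.1 and 2.7 in vrs4.k, 4.2, 8.5 and 11.1 in vrs1, and 8, 6.04 and 2.4 in int-c.5 at W3.5. At W5.5 AK249904.1 was at 19.4, 20.9, 18.2 and 43.5 TPM in Bowman, 49.3, 17.5 and 28.5 in int-a.1, 19.3, 35.4 and 18.8 in vrs4.k, 19.2, 15.7 and 41.9 in vrs1, and 15.3, 29.7 and 21.8 in int-c.5. The W3.5 to W5.5 step of this OsMADS7 match (log2 fold 1.99, SE 0.33, adjusted p = 0.00121) was the largest among the 35, and stages overlapped in vrs4.k alone. AK374424 was at 1, 6, 2.5 and 9.5 TPM in Bowman, 4.2, 1.7 and 2.4 in int-a.1, 2.2, 38.1 and 2.5 in vrs4.k, 2.8, 5.4 and 7.4 in vrs1, and 7, 5.43 and 1.9 in int-c.5 at W3.5. At W5.5 AK374424 was at 12.2, 21.8, 15.9 and 30.5 TPM in Bowman, 29.5, 12.1 and 20.8 in int-a.1, 17.1, 24.2 and 14 in vrs4.k, 13.9, 11.1 and 28.8 in vrs1, and 12.1, 26.2 and 19.4 in int-c.5. The OsMADS8 match rose by a like amount (log2 fold 1.87, SE 0.30, adjusted p = 0.000981), again with an overlap only in vrs4.k. OsMADS7 and OsMADS8 are the rice relatives of SEPALLATA3, which bridges B and C class proteins.

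OsMADS1 shapes the lemma and palea, the bracts that enclose a rice floret. AK250344.1 was at 1.7, 6, 4.1 and 14.3 TPM in Bowman, 8.6, 1.9 and 4.1 in int-a.1, 5.9, 36.7 and 4.5 in vrs4.k, 5.1, 7.4 and 9.4 in vrs1, and 9, 4.65 and 2.49 in int-c.5 at W3.5. At W5.5 AK250344.1 was at 14.3, 23.3, 13.7 and 32.8 TPM in Bowman, 57, 19.9 and 24.5 in int-a.1, 18.1, 31 and 17.3 in vrs4.k, 21.3, 13.8 and 32.6 in vrs1, and 9.73, 23.4 and 14.8 in int-c.5. The OsMADS1 match rose (log2 fold 1.65, SE 0.28, adjusted p = 0.00122), and int-a.1 W5.5 replicate 1, at 57 TPM, was its highest library. MLOC_57803.3 was at 4.8, 21.1, 16.5 and 61 TPM in Bowman, 29.1, 7.3 and 9.9 in int-a.1, 20.8, 86.2 and 14.3 in vrs4.k, 14.3, 20.4 and 28.6 in vrs1, and 19, 15 and 5.63 in int-c.5 at W3.5. At W5.5 MLOC_57803.3 was at 46.7, 76.8, 43.6 and 71 TPM in Bowman, 61.6, 34.4 and 46.6 in int-a.1, 51.5, 82.5 and 46.4 in vrs4.k, 44.5, 30.9 and 80.3 in vrs1, and 19.7, 62.1 and 37.1 in int-c.5. This OsMADS5 match, a low-confidence model on chromosome 7 at 40.37, was the most abundant SEP-like transcript and rose (log2 fold 1.41, SE 0.29, adjusted p = 0.00498). MLOC_53585.1 was at 5, 11.5, 9.5 and 22.6 TPM in Bowman, 11.8, 3 and 7.8 in int-a.1, 12.5, 33.7 and 7.2 in vrs4.k, 6, 9.8 and 14.5 in vrs1, and 12, 8.34 and 3.36 in int-c.5 at W3.5. At W5.5 MLOC_53585.1 was at 20.5, 39.7, 26.1 and 37.4 TPM in Bowman, 26.4, 24.9 and 29.9 in int-a.1, 22.2, 42.2 and 24.1 in vrs4.k, 23, 19.1 and 44.6 in vrs1, and 12, 32.9 and 21.2 in int-c.5. A low-confidence model at 40.65 on the same chromosome, MLOC_53585.1 has an OsMADS1 rice locus but an OsMADS5 description, and it rose (log2 fold 1.40, SE 0.23, adjusted p = 0.00119). The pair may share reads or be parts of one gene, so each value is uncertain. In all 3 transcripts the stages were separate in int-a.1, vrs1 and int-c.5 and overlapped in Bowman and vrs4.k; for MLOC_53585.1 the int-c.5 gap is smaller than the rounding of its W3.5 replicate 1. The 6th, the OsMADS34 match MLOC_64157.2 (chromosome 5, 125.76), whose rice gene acts in panicle branching and spikelet formation, ran from 11 to 52.1 TPM (median 25.1) over the 16 W3.5 libraries and from 27.8 to 43.8 (median 35) over the 16 W5.5 libraries. Its rise was the smallest of the SEP-like transcripts (log2 fold 0.51, SE 0.17, adjusted p = 0.0458), and the call was lost in 22 of the 32 refits that left out 1 library (log2 folds 0.42 to 0.60) and under quantile (0.46) and median-of-ratios scaling (0.44).

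AGL6-like proteins work beside SEP-like ones in grass florets. AK374272 was at 1.9, 6.7, 4.5 and 16.4 TPM in Bowman, 6.2, 2.2 and 4.4 in int-a.1, 7.5, 41 and 3.3 in vrs4.k, 4.4, 7.1 and 9.1 in vrs1, and 10, 6.07 and 3.28 in int-c.5 at W3.5. At W5.5 AK374272 was at 13.3, 23.3, 11.6 and 37.2 TPM in Bowman, 24.5, 12.8 and 19.3 in int-a.1, 16.8, 38.1 and 18.1 in vrs4.k, 15.7, 13.4 and 36.8 in vrs1, and 12.2, 24.3 and 16.1 in int-c.5. The OsMADS6 match (chromosome 6, 60.62) rose (log2 fold 1.48, SE 0.28, adjusted p = 0.00288), with separate stages in int-a.1, vrs1 and int-c.5 and high W3.5 values in Bowman replicate 4 and vrs4.k replicate 2.

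**Figure D2:**
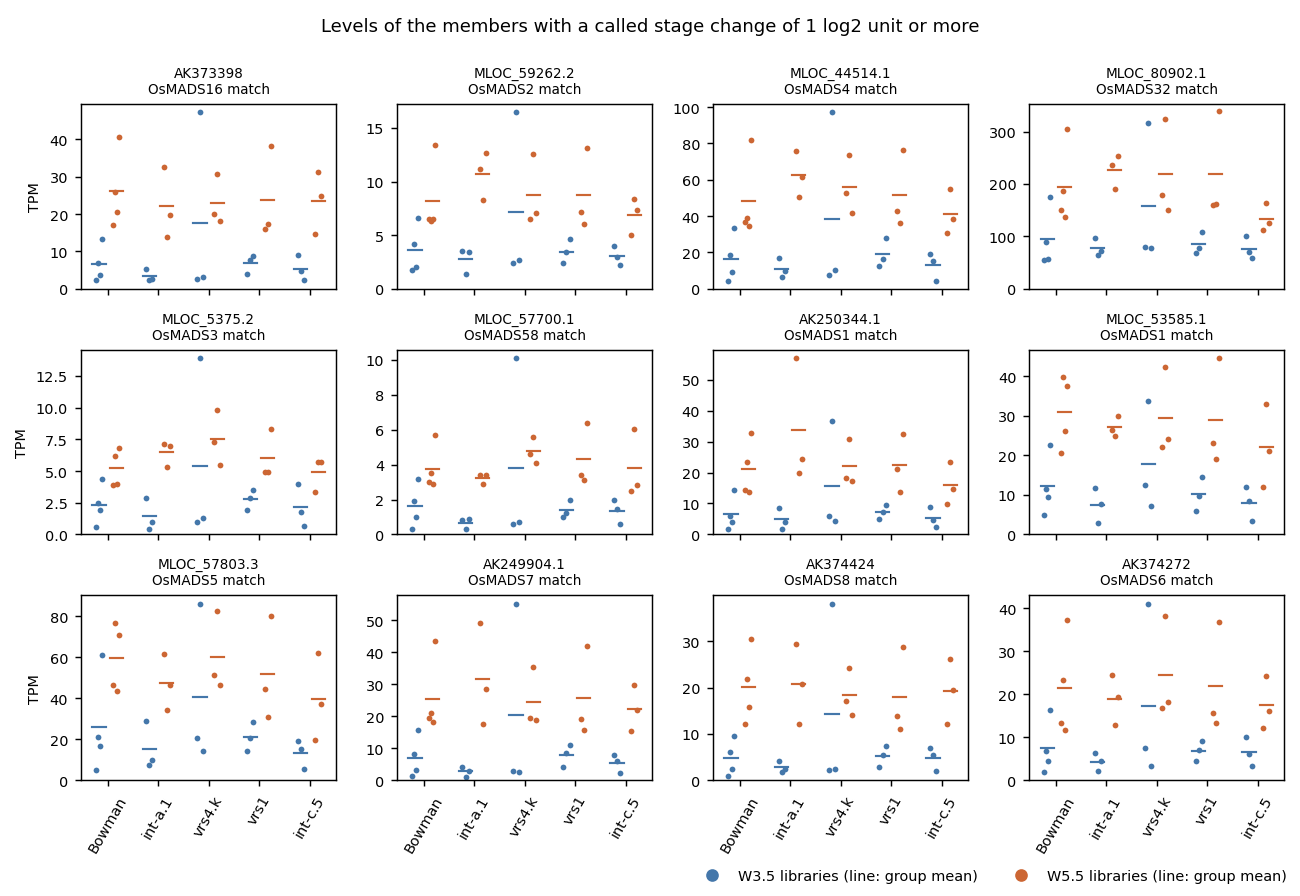
Levels in TPM (vertical axes, each from 0) of the 12 members whose stage change passed and reached 1 log2 unit, by line, with 1 point per library (blue W3.5, orange W5.5) and the group mean as a line. In each panel 1 blue point stands far above its group in vrs4.k, such as 47.3 TPM for AK373398 against 2.5 and 3.2 TPM in the other two W3.5 libraries.

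AP1/FUL-like factors mark the switch of the meristem to flowering. AK360697 was at 153.3, 239.7, 279.5 and 284.9 TPM in Bowman, 356.8, 164.9 and 208.3 in int-a.1, 284.5, 298.5 and 171 in vrs4.k, 224.2, 217.8 and 183.4 in vrs1, and 203, 182 and 156 in int-c.5 at W3.5. At W5.5 AK360697 was at 239.2, 398.4, 339.1 and 269.4 TPM in Bowman, 214.7, 241.3 and 260.9 in int-a.1, 242.2, 277.5 and 277.9 in vrs4.k, 272.2, 202.6 and 269.1 in vrs1, and 195, 333 and 263 in int-c.5. This OsMADS14 match (chromosome 5, 125.76, the position also given for the OsMADS34 match) was the most abundant member in Bowman at both stages, with means of 239 ± 60.8 and 312 ± 71.4 TPM (SD, n = 4). Its stages overlapped in every line and it did not pass (log2 fold 0.26, SE 0.12, adjusted p = 0.107), except with library weights (0.31), without the 4 libraries apart from their stage (0.42) and without int-a.1 W3.5 replicate 1 alone (0.33, adjusted p = 0.0298). The OsMADS15 match MLOC_61901.1 (chromosome 2, 58.64) ran from 24.9 to 112.4 TPM (median 55) over the 16 W3.5 libraries and from 73.4 to 121.2 (median 98.6) over the 16 W5.5 libraries, and it rose (log2 fold 0.90, SE 0.14, adjusted p = 0.00084). The OsMADS18 matches AK361063 and AK361227 (chromosome 2, 52.62) may share reads. AK361227 rose slightly (log2 fold 0.29, SE 0.08, adjusted p = 0.0227; 0.22 and no longer past the threshold under quantile normalization), and AK361063 did not pass (log2 fold 0.21, SE 0.09, adjusted p = 0.0862), except with library weights (0.19), without the 4 libraries apart from their stage (0.29) and without int-a.1 W3.5 replicate 1 alone (0.26, adjusted p = 0.0259).

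SOC1-like factors promote flowering in Arabidopsis, and the rice OsMADS56 acts on flowering time. AK368348 was at 12, 18.8, 18 and 30.1 TPM in Bowman, 29.7, 19.3 and 22.9 in int-a.1, 34.6, 31.1 and 20.5 in vrs4.k, 19, 17.2 and 17.1 in vrs1, and 22, 21.2 and 15.9 in int-c.5 at W3.5. At W5.5 AK368348 was at 21.2, 24.3, 19.4 and 24.2 TPM in Bowman, 28.3, 17.3 and 22.5 in int-a.1, 25.1, 27.3 and 23.3 in vrs4.k, 21.2, 19.6 and 26.7 in vrs1, and 15.7, 21.7 and 22.3 in int-c.5. Levels of this more abundant of the 2 OsMADS56 matches overlapped between stages outside vrs1 and did not pass (log2 fold 0.06, SE 0.10, adjusted p = 0.68). The other, AK369282 (chromosome 1, 50.57), ran from 3.59 to 32 TPM (median 8.4) over the 16 W3.5 libraries and from 7.7 to 42.8 (median 17.8) over the 16 W5.5 libraries and rose (log2 fold 0.95, SE 0.22, adjusted p = 0.0083). Reads may be shared within the pair.

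Of the 4 SVP-like transcripts 2 fell and 2 did not pass. AK250506.1 was at 200.6, 95.4, 158.5 and 23.1 TPM in Bowman, 68, 171.7 and 130.4 in int-a.1, 58.6, 8.1 and 115.4 in vrs4.k, 97.1, 168.9 and 88.3 in vrs1, and 114, 133 and 210.5 in int-c.5 at W3.5. At W5.5 AK250506.1 was at 57.8, 19.2, 72.6 and 2.6 TPM in Bowman, 9.3, 67.9 and 37.3 in int-a.1, 72.6, 15.8 and 60.7 in vrs4.k, 45.9, 73.4 and 7.9 in vrs1, and 138, 77 and 102 in int-c.5. This OsMADS47 match was the most abundant of the 4 over the 10 groups (mean 84.8 TPM) and ran from 2.6 TPM in a Bowman W5.5 library to 210.5 TPM in an int-c.5 W3.5 library. Its average change did not pass (log2 fold -1.24, SE 0.45, adjusted p = 0.057); it passed with library weights (-1.26), without the 4 libraries apart from their stage (-1.70) and in 8 of the 32 refits without 1 library. AK356695 (chromosome 7, 61.76) ran from 22.3 to 142 TPM (median 112) over the 16 W3.5 libraries and from 16.1 to 96.6 (median 72) over the 16 W5.5 libraries and fell (log2 fold -0.81, SE 0.26, adjusted p = 0.0342), a call lost in 11 of the 32 refits (-0.95 to -0.67). AK369102 ran from 41.1 to 100.1 TPM (median 82.7) over the 16 W3.5 libraries and from 28.8 to 80.4 (median 61.5) over the 16 W5.5 libraries and fell as well (log2 fold -0.50, SE 0.14, adjusted p = 0.0224). MLOC_79734.1, a low-confidence model, did not pass (log2 fold -0.16, SE 0.20, adjusted p = 0.604). All 3 of these last match OsMADS22 and may share reads. OsMADS22 and OsMADS47 are rice genes of the SVP group, known for effects on meristem identity and brassinosteroid responses. The 4 together summed to 75.1 to 458 TPM at W3.5 (median 314) and 54.5 to 326 TPM at W5.5 (median 202). Line by line, the median log2 fold of the 4 was -0.98 in Bowman, -0.88 in int-a.1, -0.91 in vrs1 and -0.40 in int-c.5. In vrs4.k the median was 0.001, with folds from -0.20 to 0.30. Its W3.5 replicate 2, apart from its stage, was the lowest vrs4.k W3.5 library for each of the 4. There AK250506.1 was at 8.1 TPM against 58.6 and 115.4, and AK356695 at 22.3 TPM against 98.4 and 92.7. AK369102 was at 41.1 TPM against 66.5 and 69.6. The vrs4.k folds therefore depend on this library.

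**Figure D3:**
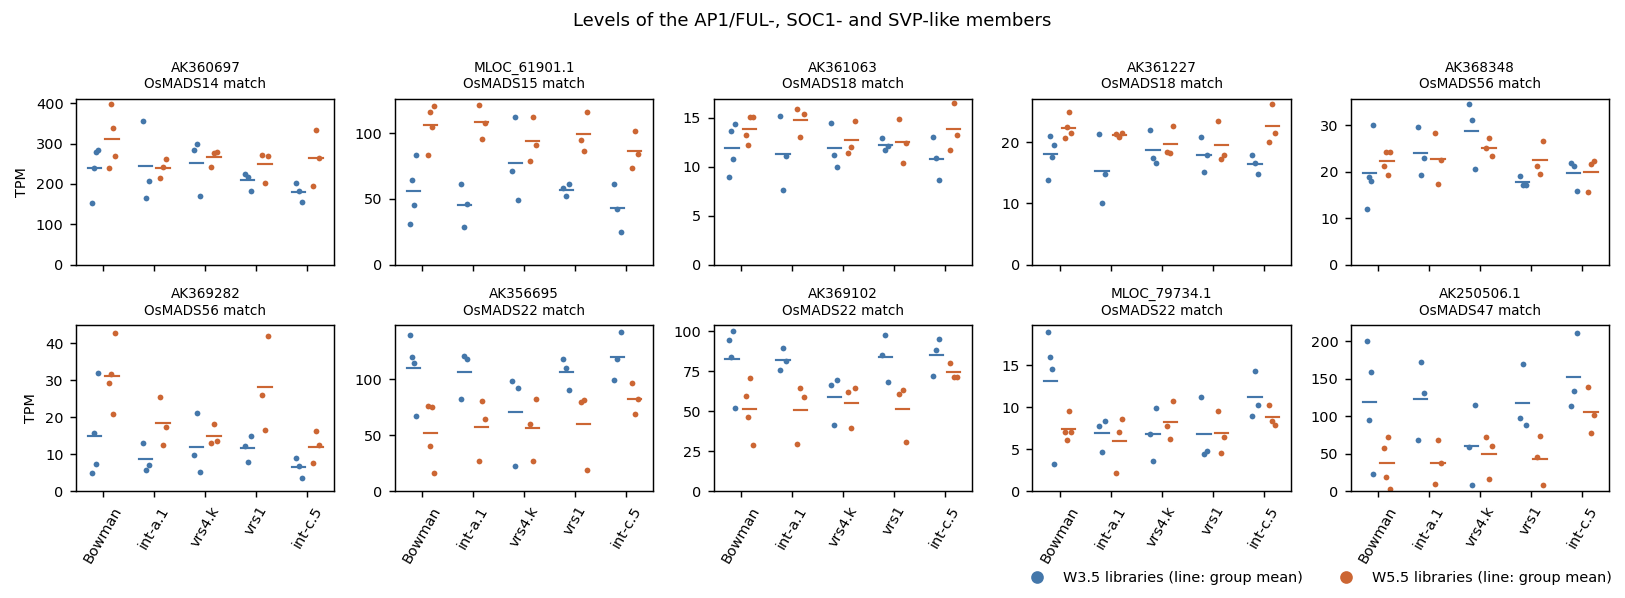
Levels in TPM (vertical axes, each from 0) of the 4 AP1/FUL-like, 2 SOC1-like and 4 SVP-like members by line, with 1 point per library (blue W3.5, orange W5.5) and the group mean as a line. The W5.5 means in TPM of AK356695, AK369102 and AK250506.1 are below the W3.5 means in all 5 lines, and AK360697 reaches 398.4 TPM. On the tested log2(TPM + 1) scale the folds of the 4 SVP-like members in vrs4.k run from -0.20 to 0.30. They depend on vrs4.k W3.5 replicate 2, apart from its stage, which is the lowest vrs4.k W3.5 library for each of the 4.

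Outside the floral classes 2 of 11 passed, a share near the 16.6% of all transcripts. MLOC_36644.7 was at 8.4, 16.1, 10.9 and 14.6 TPM in Bowman, 21.5, 7.6 and 10.1 in int-a.1, 17.2, 17.1 and 9.2 in vrs4.k, 12.5, 10.9 and 11.1 in vrs1, and 12, 9.98 and 6.7 in int-c.5 at W3.5. At W5.5 MLOC_36644.7 was at 15.3, 21, 27.1 and 17.1 TPM in Bowman, 16.3, 17.4 and 21.4 in int-a.1, 13.7, 21 and 23 in vrs4.k, 20.6, 13.5 and 12.7 in vrs1, and 12.5, 22.2 and 20.3 in int-c.5. This type I transcript, an OsMADS64 match on chromosome 2 at 57.01, rose (log2 fold 0.58, SE 0.14, adjusted p = 0.00987), with separate stages in vrs1 and int-c.5; the int-c.5 gap is within the rounding of its W3.5 replicate 1. Type I factors are known in Arabidopsis mainly from the female gametophyte and endosperm. The other type I members, MLOC_40824.1, MLOC_44502.1 and MLOC_50079.1, lay between 0.5 and 8 TPM in all libraries and did not pass (log2 folds -0.11 to -0.01). AK368034 is a member by the name of its Arabidopsis match, AGAMOUS-like 26, while its rice match is an RNA methyltransferase. It ran from 4.3 to 7.3 TPM (median 5.39) over the 16 W3.5 libraries and from 3.8 to 5.6 (median 4.4) over the 16 W5.5 libraries and fell (log2 fold -0.22, SE 0.06, adjusted p = 0.016).

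MIKC* factors act in Arabidopsis pollen. MLOC_13735.1 was at 39.9, 44.8, 57.6 and 40 TPM in Bowman, 61.1, 39.2 and 36.8 in int-a.1, 36.9, 30.9 and 31.8 in vrs4.k, 45.2, 65.7 and 26 in vrs1, and 35, 36.1 and 39 in int-c.5 at W3.5. At W5.5 MLOC_13735.1 was at 27.6, 42.9, 51.6 and 24.3 TPM in Bowman, 10.9, 29.9 and 26.9 in int-a.1, 36.2, 30.8 and 29.7 in vrs4.k, 31, 34.5 and 21.5 in vrs1, and 32.4, 43.5 and 42.2 in int-c.5. Of the 3 OsMADS65 matches it was by far the most abundant, and it did not pass (log2 fold -0.39, SE 0.14, adjusted p = 0.0558), though it did under quantile normalization (-0.43), median-of-ratios scaling (-0.45), library weights (-0.29) and a mean-variance trend (-0.39). Their Arabidopsis matches, AGL14 and AGL71, are SOC1-like, so the class of these 3 is uncertain. AK370352 and MLOC_34072.1 lay between 0.6 and 6.7 TPM and did not pass (0.09 and -0.08).

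The AGL17-like group is represented by AK363243, whose match OsMADS57 acts on tiller outgrowth in rice. AK363243 was at 2.4, 2.9, 6.3 and 1.8 TPM in Bowman, 3.3, 2.9 and 3.2 in int-a.1, 2.2, 3.1 and 3.2 in vrs4.k, 4.1, 5.9 and 2.7 in vrs1, and 2, 3.15 and 2.85 in int-c.5 at W3.5. At W5.5 AK363243 was at 3.7, 4.5, 3.4 and 1.8 TPM in Bowman, 1.9, 3.3 and 2.4 in int-a.1, 1.5, 3.1 and 2.7 in vrs4.k, 2, 2.1 and 3.2 in vrs1, and 2.72, 3.88 and 3.53 in int-c.5. Stages overlapped in every line, and no change passed (log2 fold -0.14, SE 0.12, adjusted p = 0.443). MLOC_74053.1 was at 9.8, 14.1, 9.7 and 17.3 TPM in Bowman, 13.4, 12.4 and 10.7 in int-a.1, 12.2, 19.4 and 14.1 in vrs4.k, 8.3, 11.5 and 11.4 in vrs1, and 12, 12.8 and 12.7 in int-c.5 at W3.5. At W5.5 MLOC_74053.1 was at 10.1, 16.3, 14.6 and 15.6 TPM in Bowman, 17.4, 9.7 and 9.4 in int-a.1, 13.4, 19.3 and 15.3 in vrs4.k, 12.3, 12.9 and 13.9 in vrs1, and 17.3, 19.3 and 20.2 in int-c.5. MLOC_74053.1, the most abundant mixed-match member, and MLOC_23937.1 both have OsMADS69 in rice with an F-box description, and neither passed (log2 fold 0.21, SE 0.10, adjusted p = 0.117 and log2 fold 0.41, SE 0.15, adjusted p = 0.061). Both did with library weights (0.27 and 0.45) and when the 4 libraries apart from their stage were dropped (0.30 and 0.51). MLOC_23937.1 also passed in 4 of the 32 refits without 1 library, those dropping int-a.1 W5.5 replicate 3 (0.49), vrs4.k W3.5 replicate 2 (0.47), vrs4.k W5.5 replicate 1 (0.44) or int-c.5 W5.5 replicate 1 (0.49). The OsMADS60 match AK249508.1 was at 10.1 to 23.8 TPM and did not pass (log2 fold 0.05, SE 0.08, adjusted p = 0.675).

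In Bowman the order of levels shifted between the stages. At W3.5 the highest means were those of AK360697 (239 TPM), the SVP-like AK250506.1 (119 ± 77.4 TPM, SD, n = 4) and AK356695 (110.5 TPM), then MLOC_80902.1 (94.3 TPM) and AK369102 (82.8 TPM). The library ranges of ranks 2 to 5 overlapped one another, and that of AK360697 overlapped those of AK250506.1 and MLOC_80902.1. At W5.5 AK360697 was followed by MLOC_80902.1 (195 TPM), MLOC_61901.1 (106 TPM), MLOC_57803.3 (59.5 TPM), AK356695 (51.9 TPM), AK369102 (51.3 TPM) and MLOC_44514.1 (48.1 TPM). From rank 4 to rank 8 the ranges overlapped, as did those of AK360697 and MLOC_80902.1. AK250506.1 went from rank 2 to rank 8 and AK373398 from rank 22 to rank 13, as a description with no test of ranks.

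Within single lines no member passed the stage test. The share of all transcripts called was 0% in Bowman, vrs4.k, vrs1 and int-c.5, and 0.00994% (3 transcripts) in int-a.1. At an unadjusted p below 0.05, 18 of 35 members passed in Bowman (22.2% of all transcripts), 16 in int-a.1 (12.9%), 0 in vrs4.k (2.1%), 11 in vrs1 (7.16%) and 14 in int-c.5 (15.8%). The 12 B class, C class, SEP-like and AGL6-like transcripts had positive log2 folds in all 5 lines, with medians of 1.59 in Bowman, 1.91 in int-a.1, 1.01 in vrs4.k, 1.41 in vrs1 and 1.43 in int-c.5. Every W5.5 library lay above every W3.5 library for 4 of the 35 members in Bowman (5.31% of all transcripts), 13 in int-a.1 (11%), 0 in vrs4.k (2.28%), 19 in vrs1 (11.5%) and 16 in int-c.5 (18.9%). Every W5.5 library lay below for 0 members in Bowman (2.47%), 5 in int-a.1 (6.18%), 0 in vrs4.k (2.31%), 3 in vrs1 (5.14%) and 2 in int-c.5 (7.11%).

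The counts in single lines moved when the 4 libraries apart from their stage were left out. These libraries were picked on an axis that follows stage, so leaving them out widens the stage difference by construction, and the values without them are no separate evidence of it. Without them 17 members passed in Bowman (10.6% of all transcripts), 11 in int-a.1 (0.663%) and 6 in int-c.5 (2.81%), and 0 in vrs4.k (0.00663%) and vrs1 (0%). The median of the 12 was then 2.10 in Bowman, 2.28 in int-a.1, 1.91 in vrs4.k and 1.76 in int-c.5, against 1.41 in vrs1, which loses no library. Averaged over the lines, 21 members rose and 4 fell without them, against 27.2% and 11.1% of all transcripts. Leaving out vrs4.k W3.5 replicate 2 alone gave 3 called members in Bowman (0.951% of all transcripts) and 6 in int-a.1 (0.368%), and dropping only Bowman replicate 4 of W3.5 gave 3 in Bowman (1.38%).

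The floral organ transcripts varied together from library to library. Over the 32 libraries the 66 pairs among the 12 B class, C class, SEP-like and AGL6-like members had a median Pearson r of 0.95 on log2(TPM + 1) (lowest 0.64), and a median of 0.92 after subtraction of each group's mean. With the 4 SVP-like members the median r was -0.77 over 48 pairs, and -0.73 within groups. It was 0.75 with the SOC1-like members and 0.60 with the AP1/FUL-like members, and -0.08 with the type I, MIKC*-matched and mixed-match members. Those last 132 pairs were spread widely, from -0.55 to 0.80. Correlations among other transcripts were not computed for comparison. The libraries share lines, stages and scaling, so these correlations are descriptions and carry no p.

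The mean log2(TPM + 1) of the 12 ran from 1.72 to 5.19 at W3.5 (median 2.72) and from 3.61 to 4.95 at W5.5 (median 4.19). The highest of all 32 libraries was vrs4.k W3.5 replicate 2, and Bowman W3.5 replicate 4, at 4.01, lay within the W5.5 range. The lowest W5.5 library was int-c.5 replicate 1, at 3.61, and int-a.1 W3.5 replicate 1 was at 3.07. The mean of the 4 SVP-like members ran from 3.83 to 6.42 at W3.5 and from 3.46 to 5.89 at W5.5, and int-c.5 W5.5 replicate 1 was the highest W5.5 library. Across the 32 libraries the SVP-like mean and the mean of the 12 had r = -0.82 (rho = -0.84). Within W3.5 r was -0.88 (rho = -0.69) and within W5.5 it was -0.86 (rho = -0.69), with 16 libraries each. Without the 2 libraries farthest from the median SVP-like mean r was -0.81 over both stages, -0.60 within W3.5 and -0.83 within W5.5. The first principal component and the mean of the 12 had r = 0.86, and 0.83 and 0.80 within the stages.

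**Figure D4:**
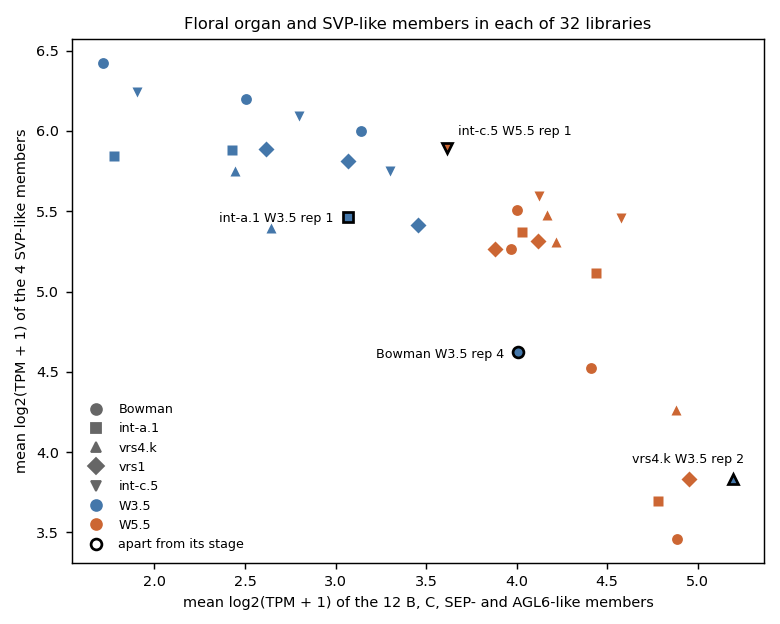
Mean log2(TPM + 1) of the 4 SVP-like members (vertical axis) against that of the 12 B class, C class, SEP-like and AGL6-like members (horizontal axis), 1 point per library, with stage by colour, line by shape and the 4 libraries apart from their stage outlined. vrs4.k W3.5 replicate 2 lies farthest to the right, at 5.19, among the W5.5 libraries.

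The second question was whether a row-type line differed from Bowman. No member was called in any of the 4 lines. Averaged over both stages, 0 of 35 passed in int-a.1, where 2.13% of all transcripts did, in vrs4.k (1.54%), in vrs1 (0.497%) and in int-c.5 (0.345%). At W3.5 the count was again 0 in each line (0.653%, 0.653%, 0.341% and 0.0994% of all transcripts, in the same order), and so it was at W5.5 (0.709%, 0.696%, 0.325% and 0.106%). At an unadjusted p below 0.05, 1 member passed in int-a.1 averaged over the stages, 1 in vrs4.k, 0 in vrs1 and 3 in int-c.5, against 13%, 12.3%, 6.83% and 11% of all transcripts. In the authors' deposited table no member had a false discovery rate below 0.05 in any of its 12 comparisons of a line with Bowman, in which 23 to 499 transcripts did. The lowest rate of a member in the authors' deposited table was 0.1555, for AK368348 in vrs4.k over both stages. The distances from estimate to bound of the 95% confidence intervals had a median of 0.54 log2 units for the stage averages and 0.76 at single stages.

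For the 12 B class, C class, SEP-like and AGL6-like transcripts the averaged log2 folds over Bowman ran from -0.43 (AK373398) to 0.18 (AK250344.1) in int-a.1, with intervals reaching from -1.36 to 1.04. In vrs4.k they ran from 0.17 to 0.50, all 12 above 0, with intervals from -0.77 to 1.39. In vrs1 they ran from -0.14 to 0.29 (intervals from -0.98 to 1.26) and in int-c.5 from -0.63 to 0.05, 11 of 12 below 0 (intervals from -1.55 to 1.00). The lines share the Bowman libraries. These signs were not kept without the 4 libraries apart from their stage: 9 of 12 were then above 0 in vrs4.k (-0.25 to 0.49), 9 of 12 in int-c.5 (-0.18 to 0.39) and 12 of 12 in vrs1 (0.03 to 0.51), and none was called. Dropping Bowman W3.5 replicate 4, the highest of its group for these transcripts, lowers the Bowman level, while vrs1 loses no library. The 12 vary together, so their signs are not separate observations.

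Within int-c.5 and within vrs4.k, the lowest adjusted p of a member averaged over the stages belonged to a SOC1-like transcript (0.227 and 0.325). The members of this paragraph were chosen after their values were seen. AK369282 was at 6.49 ± 2.73 TPM in int-c.5 at W3.5 (SD, n = 3) against 15.0 ± 12.2 in Bowman (n = 4), and at 12.1 ± 4.22 against 31.1 ± 9.04 at W5.5. All 3 int-c.5 W5.5 libraries (7.7, 12.3 and 16.1 TPM) were below the lowest Bowman one (20.9 TPM). So were all 3 vrs4.k W5.5 libraries, at 13, 18.2 and 13.6 TPM (log2 fold -0.98, SE 0.47, adjusted p = 0.496). Those of int-a.1 and vrs1 overlapped Bowman. At W3.5 int-c.5 and Bowman overlapped, and the int-c.5 average did not pass (log2 fold -1.08, SE 0.34, adjusted p = 0.227). With library weights it did, at -1.05 in int-c.5 and -0.77 in int-a.1. The other OsMADS56 match, AK368348, was at 28.7 ± 7.34 TPM in vrs4.k at W3.5 against 19.7 ± 7.55 in Bowman, with overlapping libraries (log2 fold 0.56, SE 0.22, adjusted p = 0.417), and passed with library weights (0.80 at W3.5 and 0.50 averaged). The SVP-like AK250506.1 was at 106 ± 30.9 TPM in int-c.5 at W5.5 against 38.1 ± 32.6 in Bowman, with no overlap (lowest 77 against highest 72.6 TPM), and did not pass (log2 fold 2.13, SE 0.96, adjusted p = 0.892). Replicate 1 of int-c.5 W5.5, apart from its stage, gave the highest of these AK250506.1 values (138 TPM) and the lowest AK369282 value. How many of all transcripts separate int-c.5 from Bowman in this way was not counted. The MIKC*-matched AK370352 in int-a.1 (log2 fold -0.68, SE 0.31, adjusted p = 0.352) and the type I MLOC_50079.1 in int-c.5 (log2 fold 0.57, SE 0.21, adjusted p = 0.322) did not pass either.

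**Figure D5:**
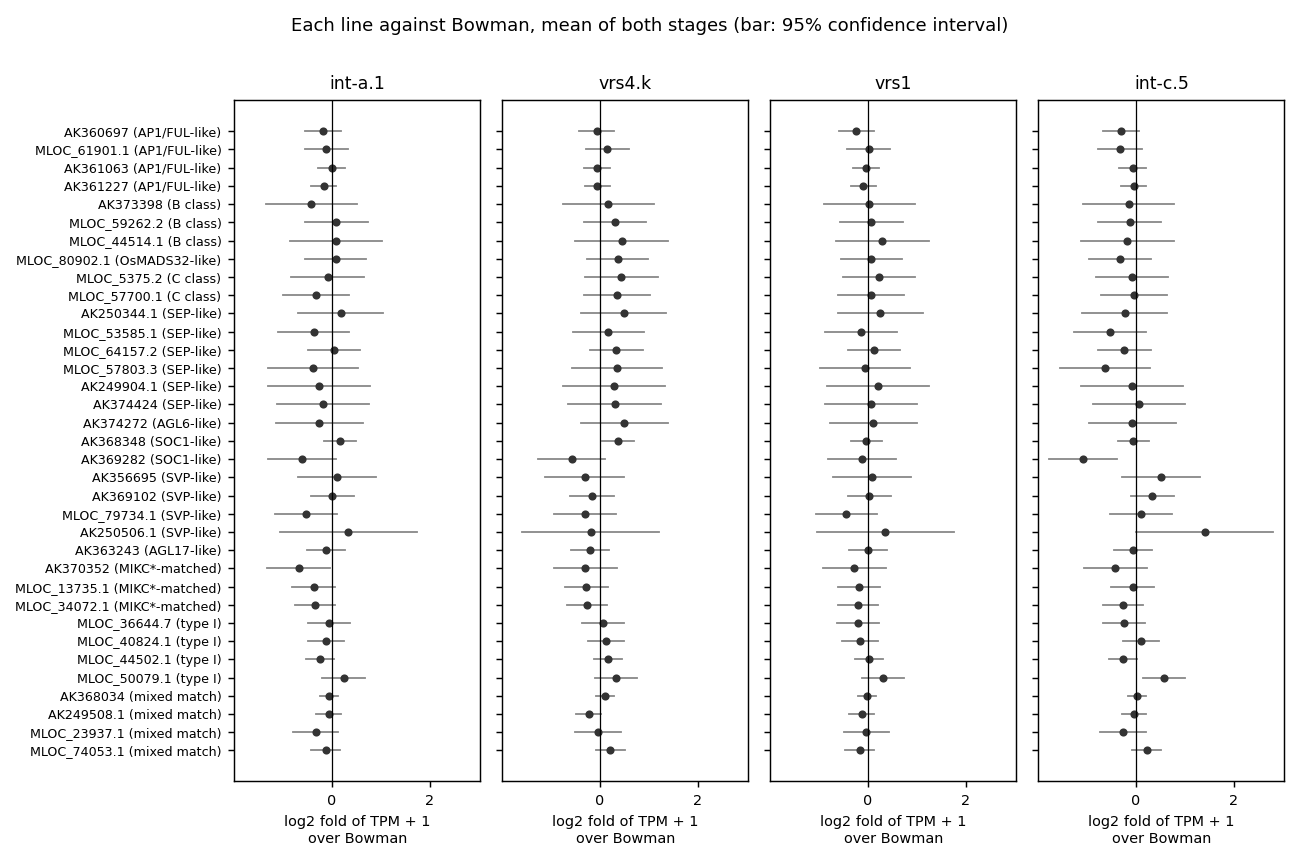
Log2 fold of TPM + 1 over Bowman (horizontal axis), averaged over both stages, for the 35 members in each of the 4 lines, with 95% confidence intervals as bars. No member passed the test, and the most negative estimate is that of the SOC1-like AK369282 in int-c.5, at -1.08.

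Whether the stage change differed between a line and Bowman was tested as an interaction. No member was called in any of the 4 interactions, nor was any other transcript (0% each). None of the 35 members had an unadjusted p below 0.05, against 5.85% of all transcripts in int-a.1, 6.22% in vrs4.k, 2.5% in vrs1 and 2.91% in int-c.5. For the 12 B class, C class, SEP-like and AGL6-like transcripts the interaction ran from -0.01 to 1.08 in int-a.1 and from -0.75 to 0.04 in vrs4.k, with intervals from -1.69 to 3.17 and from -2.72 to 1.56. It ran from -0.50 to 0.14 in vrs1 and from -0.28 to 0.37 in int-c.5, with intervals from -2.57 to 1.66 and from -2.19 to 1.98. Without the 4 libraries apart from their stage the interactions ran from 0.08 to 0.89 in int-a.1, 12 of 12 above 0, and from -0.80 to 0.70 in vrs4.k, 7 of 12 above 0. They then ran from -0.96 to -0.14 in vrs1, 12 of 12 below 0, and from -0.44 to 0.08 in int-c.5, 10 of 12 below 0, and none was called. Dropping Bowman W3.5 replicate 4, the highest of its group for these transcripts, widens the Bowman stage change by construction, while vrs1 loses no library. The 12 also vary together, so these counts of signs are no separate evidence of a line difference.

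Other regulators of flowers and inflorescences were followed through a list of 41 Arabidopsis loci, of which 23 were matched by 42 transcripts. Averaged over the lines, 6 of the 42 rose and 10 fell between the stages, against 11.7% and 4.87% of all transcripts. The list's florigen group holds matches to FT and ATC, of the family that carries or opposes the flowering signal. It also holds matches to FD and FD-PARALOG, which are bZIP factors outside that family. Of this group 3 of 7 fell. Both ATC (CENTRORADIALIS-like) matches did. MLOC_44160.1 had a median of 29.8 TPM over the W3.5 libraries and 8.96 over the W5.5 libraries (log2 fold -1.43, adjusted p = 0.00658). AB447465 was at 9.74 and 3.55 TPM (-0.93, adjusted p = 0.0276). The FD-PARALOG bZIP match AK373425 fell as well, from 7.7 to 4 TPM (-0.82, adjusted p = 0.00148). Among AP2-type repressors of flowering 2 of 4 fell, AK370055 (a TOE1 match; 2.3 and 1.01 TPM; -1.01, adjusted p = 0.0147) being the larger. Of 9 floral organ and carpel transcripts 3 rose and 1 fell: the CRC match AK373704, a YABBY factor of carpels, rose (15.1 and 27.6 TPM; 0.73, adjusted p = 0.0122), and the KNU match MLOC_3562.1, a zinc finger that represses WUSCHEL in Arabidopsis, fell (7.27 and 3.61 TPM; -0.84, adjusted p = 0.0336). Meristem identity transcripts gave 2 of 8 higher and 3 lower, and corepressors and Polycomb proteins 1 of 14 higher and 1 lower. In no comparison of a line with Bowman did any of the 42 pass.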

How the data were processed

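RNA sequencing of 32 barley apex libraries was available as 1 table of 30174 transcripts. The header calls the values raw counts, yet the deposited numbers are not whole and sum to 980945 to 987728 per library, so 31 deposited columns were taken as TPM. The remaining deposited column, int-c.5 W3.5 replicate 1, holds whole numbers and was recorded as a score, TPM rounded by the authors, and used on the same scale. The 26 columns of the other lines hold 1 decimal, and the other int-c.5 columns hold more. Any difference in how the int-c.5 columns were made cannot be told apart from that line. The deposited log2 fold changes and the authors' p-values, with their false discovery rates, were used only where named. BWA, Salmon, limma and GATK are listed, without versions or roles, per the submitters' processing notes, and no source used here gives the genome build. Columns name line and stage, so replicate numbers are names only, and 0 columns were left unassigned. Depth is unknown, so no counting error is given. No sequences are printed, and 0 of 35 members matched the reference gene table.

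A single model with 10 groups and no covariate was fitted to log2(TPM + 1) over all libraries with the lmFit and eBayes functions of limma 3.58.1 in R 4.3.3, after the procedure was tested on simulated data. Fold changes on this scale understate changes of low transcripts. A transcript was called at a Benjamini-Hochberg adjusted p below 0.05 over all transcripts. No filter was applied; 31 of 35 members reached 5 TPM in 3 libraries. Values after ± are SDs. The members, classes and lists were chosen with earlier results of these data known. Values in every library are given for members called in the averaged stage change with a log2 fold of 1 or more, members called against Bowman, and the most abundant of each class; other members are given by range. Alternatives were a pseudocount of 0.1, quantile normalization, median-of-ratios scaling, a filter of 5 TPM in 3 libraries, only the groups compared, library weights, a mean-variance trend, and leaving out 1 or 4 libraries.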

Additional observations from a re-analysis of the deposited data

Results flagged for a closer look

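In Bowman, the only groups of 4 libraries, 70 sets of values were checked for 1 library far from the other 3, and 5 were marked; chance marks about 1 in 20 such sets. Of these, 4 fall on Bowman W5.5 replicate 4. There MLOC_59262.2, an OsMADS2 match, was at 13.4 TPM, with the nearest other library at 6.5. MLOC_44514.1, an OsMADS4 match, was at 82 TPM against 38.9 in the nearest. AK249904.1, an OsMADS7 match, was at 43.5 TPM against 20.9. AK368034 was at 4.7 TPM while the other 3 were listed at 4.4, a gap of a few steps of the 1 decimal deposited. The 5th was MLOC_23937.1, an OsMADS69 match, at 2.9 TPM in Bowman W3.5 replicate 3 against 2 in the nearest.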

How the results depend on the processing

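Of the 20 members called in the averaged stage change, 17 were called under all 7 other settings run for it and after leaving out each of the 32 libraries in turn; the exceptions were MLOC_64157.2, AK361227 and AK356695. The count that rose ran from 15 to 21 over the other settings and from 16 to 19 over the left-out libraries. The count that fell was 5 with library weights and ran from 2 to 5 over the left-out libraries. It was 5 when replicate 3 of Bowman W5.5, replicate 2 of int-a.1 W5.5, replicate 2 of vrs1 W5.5, replicate 2 of vrs4.k W3.5 or replicate 1 of vrs4.k W5.5 was dropped. With library weights the stage change within a line was called for 4 members in Bowman (5.48% of all transcripts), 20 in int-a.1 (25.5%), 9 in vrs4.k (3.77%) and 21 in int-c.5 (26.3%). Without the 4 libraries apart from their stage, a choice that widens the stage difference by construction, it was called for 17 in Bowman, 11 in int-a.1 and 6 in int-c.5. Left-out libraries gave 0 to 3 in Bowman and 0 to 6 in int-a.1. Against Bowman, library weights gave 1 member in int-a.1 (10.3% of all transcripts), vrs4.k (6.53%) and int-c.5 (1.45%) averaged over the stages, and 1 in vrs4.k at W3.5 (6.29%). The cause of these shifts was not tested. No value changed sign past the threshold. No paired analysis was possible because the labels give no replicate numbers and the columns' numbers are names only. TPM keeps no depth, so errors of counting in low transcripts such as the C class ones cannot be given, and whole-number rounding limits int-c.5 W3.5 replicate 1.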
